A study of Mus musculus with 2 samples.

Results

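The vascular endothelial growth factors (VEGFs), the angiopoietins and their receptors were followed through 10 genes in granulosa cells of mice with and without estrogen receptor beta, which Esr2 encodes. The ligands were Vegfa, Vegfb, Vegfc, Angpt1 and Angpt2, and the receptors were Kdr, Flt1, Tek, Tie1 and Nrp1. Members were taken by symbol, through the accession in the scanner files, among the 20556 genes or transcripts left after control and outlier spots were removed. Each of the 10 members had 1 probe of its own, printed once on the array, and none was flagged as an outlier. Female C57/Bl6 mice 23 to 25 days old, either Esr2+/- (het) or Esr2-/- (null), were given pregnant mare serum gonadotropin (PMSG), a hormone preparation with follicle-stimulating activity, for 48 h. Granulosa cells of each genotype were pooled into 1 RNA sample, and the pools were compared on 2 two-colour arrays. The null pool carried Cy5 on array 1 and Cy3 on array 2. Both pools came from PMSG-treated mice, no untreated sample was analysed here, and the control carries 1 disrupted Esr2 allele. Each SD below covers the 2 technical hybridisations of the same pair of RNA pools. With 1 pool per genotype, animals were not compared with each other, and p-values are not given.

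VEGF-A is the main growth signal for endothelial cells, and it acts through the receptor tyrosine kinases encoded by Kdr (VEGFR-2) and Flt1 (VEGFR-1), with neuropilin 1 as a co-receptor. Angiopoietin 1 activates the endothelial receptor TIE2, encoded by Tek, and stabilises vessels, whereas angiopoietin 2 binds the same receptor and can oppose it. In the ovarian follicle the granulosa layer has no vessels of its own. Granulosa cells produce VEGF-A, and the vessels that bear the receptors lie in the surrounding theca, so receptor transcripts in a granulosa preparation may come from few cells.

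Each array held 21318 non-control spots, of which between 87.2% and 95.1% were well above background in each channel. A gene entered the counts below if it was well above background in at least 1 pool on both arrays, which 18516 genes or transcripts were. Across them the ratios of the arrays correlated with r = 0.32; these points are genes from the same RNA pools and are not replicates. The Esr2 probe, whose place on the gene relative to the disruption the files do not give, had a log2 ratio of null over het of -0.48 ± 0.03.

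No member differed by as much as 1.2-fold in the same direction on both arrays. All 5 ligands and, of the receptors, Kdr and Flt1 passed the background filter, while Tek, Tie1 and Nrp1 did not. Of the 7 that passed, 0 met the 2-fold rule (2-fold or more on average, with no array under 1.5-fold). Over all genes 0.0378% met it as higher and 0.0918% as lower in the null pool. By the 1.2-fold rule (at least 1.2-fold on each array, the same way) 0 of the 7 were called, against 1.7% of all genes higher and 1.09% lower. Vegfa, Vegfc, Angpt2 and Kdr were lower in the null pool on both arrays, that is 4 of 7, and no member was higher on both. Over all genes 24.3% were lower and 22.7% higher on both arrays. By median centring in place of loess the count of members lower on both arrays was 2 in place of 4, and that of all genes 1478 in place of 4497. Under that setting the ratios of the arrays correlated with r = -0.69 across genes, so rules that need both arrays to go the same way lose calls. The 5 ligands had a median log2 ratio of -0.11, the 2 receptors that passed one of -0.06, and all genes one of -0.00375.

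**Figure D1:**
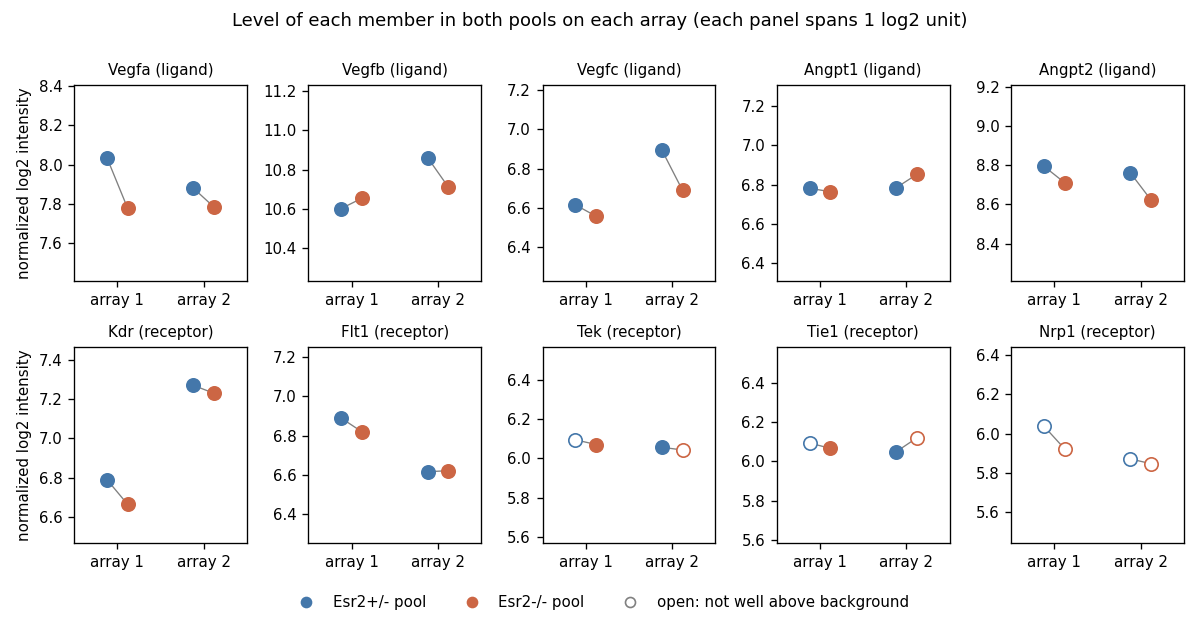
Normalized log2 intensity (vertical axes, 1 log2 unit each) of the 10 members in the het (blue) and null (orange) pool on each array; filled points were well above background and lines join the pools of an array. Among members past the background filter, null lies below het on both arrays for Vegfa, Vegfc, Angpt2 and Kdr. It does so too for Tek and Nrp1, which did not pass. Tek and Tie1 have 1 filled point on each array and Nrp1 has none.

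Vegfa, which encodes the chief angiogenic ligand, had the lowest mean ratio among the members. Its spot intensity on array 1 was 178 for the het pool in Cy3 and 284 for the null pool in Cy5. On array 2 it was 413 for the het pool in Cy5 and 165 for the null pool in Cy3. The Cy5 reading was thus the brighter on either array, and pools can be compared only after the dyes are balanced. On the normalized log2 intensity scale the het pool read 8.03 on array 1 and 7.88 on array 2, and the null pool read 7.78 on both. Both null readings lay below both het readings. The log2 ratio was -0.26 on array 1 and -0.10 on array 2, so that the mean was -0.18 ± 0.11 (SD, n = 2 hybridisations). The null pool was thus 1.13-fold lower. Of all genes, 765 (4.13%) had a lower mean ratio. For scale, the departure of an array from the mean of both had a robust SD of 0.07 among the 500 genes nearest to Vegfa in brightness, and the scanner software's error for this spot was 0.20 and 0.22 log2 units.

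Vegfb encodes a VEGF family ligand that binds VEGFR-1, and its direction differed between the arrays. Its normalized log2 intensity was 10.60 in the het and 10.65 in the null pool on array 1, and 10.86 and 10.71 on array 2. The pools overlapped, and the ratio was 0.05 on array 1 and -0.15 on array 2 (mean -0.05 ± 0.14). Vegfc, best known as the ligand that drives growth of lymphatic vessels, read 6.61 in the het and 6.56 in the null pool on array 1, and 6.89 and 6.69 on array 2. The null pool was lower on either array, although the arrays themselves differed by more than the pools on array 1. The Vegfc ratio was -0.06 and -0.21 (mean -0.13 ± 0.10), or 1.10-fold lower. Its spot was dim, at 1.71 to 3.34 times the local background. In the log ratios of the scanner software the Vegfc difference was larger, at -0.26 and -0.38, with errors of 0.54 and 0.50 log2 units. Without background subtraction the mean was -0.13, and the cause of the larger difference was not tested.

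Of the angiopoietins, Angpt2 was lower in the null pool on both arrays and Angpt1 was not. Angpt2, the vessel-destabilising ligand, had normalized log2 intensities of 8.79 in the het and 8.71 in the null pool on array 1, and 8.76 and 8.62 on array 2. Both null readings lay below both het readings. Its ratio was -0.08 and -0.14 (mean -0.11 ± 0.04, 1.08-fold lower), which is small beside the scanner software's error of 0.17 and 0.18 log2 units. Angpt1, the activating ligand of TIE2, read 6.78 in the het and 6.76 in the null pool on array 1, and 6.78 and 6.85 on array 2. Its ratio was -0.02 and 0.07 (mean 0.03 ± 0.06), so the sign turned between the arrays. The Angpt1 spot was dim, at 1.83 to 3.12 times the local background, with errors of 0.43 and 0.47 log2 units. The difference between the Angpt2 and Angpt1 ratios was not tested, since 1 pool per genotype allows no test.

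Kdr was the receptor with the lowest ratio among those past the background filter. The het pool read 6.79 on array 1 and 7.27 on array 2 on the normalized log2 intensity scale, and the null pool read 6.66 and 7.23. The arrays differed from each other by more than the pools did, so the comparison rests on the pairing of the pools within each array. The Kdr ratio was -0.13 and -0.04 (mean -0.08 ± 0.06, 1.06-fold lower). Its spot was dim, at 1.88 to 4.70 times the local background, with scanner software errors of 0.48 and 0.31 log2 units. Flt1, whose product binds VEGF-A tightly and in its soluble form acts as a decoy, read 6.89 and 6.82 in the het and null pools on array 1, and 6.62 in both on array 2. Its ratio was -0.07 and 0.01 (mean -0.03 ± 0.05), with no settled direction. The Flt1 spot was dim as well, at 1.97 to 2.70 times the local background, with errors of 0.40 and 0.57 log2 units. In RNA from pooled cells, fewer cells of a type and less RNA per cell cannot be told apart.

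The other 3 receptors were at the edge of detection. Tek was well above background in 1 of the 2 arrays for each pool, and so was Tie1, which encodes a relative of TIE2. For these genes the readings well above background were those in Cy5, the null pool on array 1 and the het pool on array 2, so detection followed the dye and not the genotype. Tek spots lay at 1.34 to 1.63 times the local background and Tie1 spots at 1.35 to 1.71 times. Their log2 ratios were -0.02 and -0.01 for Tek, and -0.03 and 0.07 for Tie1. Nrp1 was dim in both pools, with no reading well above background on any array, at 1.23 to 1.53 times the local background, and no fold is given for it. Dim spots limit what can be seen here: the scanner software's error for Tek, Tie1 and Nrp1 was between 1.90 and 4.98 log2 units.

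**Figure D2:**
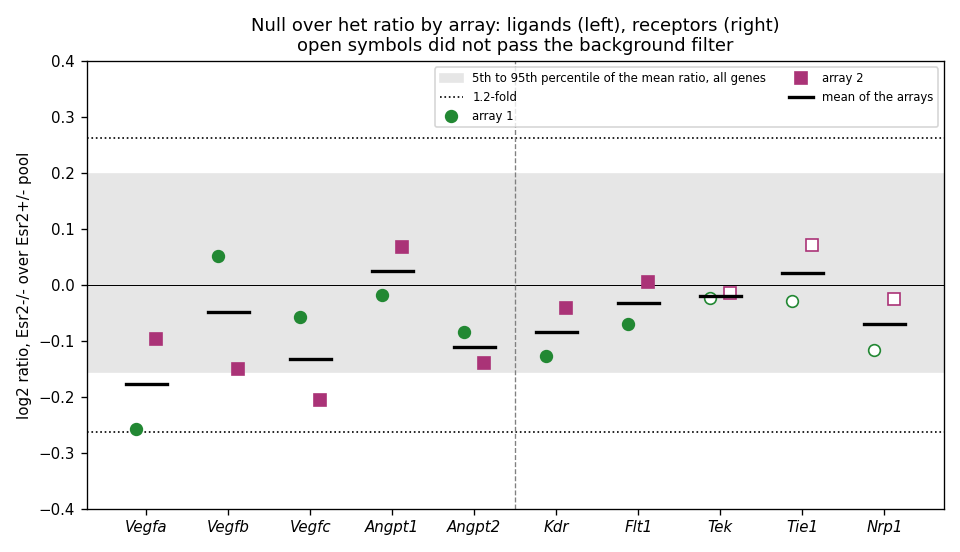
Log2 ratio of null over het (vertical axis) for each member on array 1 (circles) and array 2 (squares), with the mean as a bar; the grey band holds the 5th to 95th percentile of the mean ratio over all genes and dotted lines mark 1.2-fold. No member lies beyond a dotted line, and the Vegfa mean of -0.18 lies below the band, which starts at -0.16.

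Promoter sequences from RefSeq (GRCm38.p6), 250 bases before to 50 after the transcription start, matched 8 of the 10 members. Of the members past the background filter, 3 with a promoter sequence were lower on both arrays, namely Vegfa, Vegfc and Kdr. They are shown with Vegfb, whose sign turned between the arrays, so that the proximal promoters can be compared. Capitals mark every match, on both strands, to the GC box GGGCGG, to the hypoxia response cores ACGTG and GCGTG, to the estrogen response half-site GGTCA, and to the AP-1 site TGANTCA. The full estrogen response element, in which 2 such half-sites face each other across 3 bases, was searched as well. In Vegfb 1 half-site overlaps a hypoxia core. All are written 5′ to 3′ on the strand of the gene.
Vegfa, chr17:46032328-46032627, minus strand: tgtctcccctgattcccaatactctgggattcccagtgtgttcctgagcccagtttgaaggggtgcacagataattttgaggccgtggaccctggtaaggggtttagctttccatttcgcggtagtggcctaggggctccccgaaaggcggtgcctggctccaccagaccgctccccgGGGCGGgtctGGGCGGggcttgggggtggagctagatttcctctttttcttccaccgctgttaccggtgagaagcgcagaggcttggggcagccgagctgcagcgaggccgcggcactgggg
Vegfc, chr8:54077282-54077581, plus strand: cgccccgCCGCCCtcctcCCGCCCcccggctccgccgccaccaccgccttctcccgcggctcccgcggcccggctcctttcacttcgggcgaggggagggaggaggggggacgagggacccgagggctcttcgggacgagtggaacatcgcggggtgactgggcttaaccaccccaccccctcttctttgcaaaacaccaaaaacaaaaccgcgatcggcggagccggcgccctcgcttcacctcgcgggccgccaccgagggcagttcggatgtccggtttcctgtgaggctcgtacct
Kdr, chr5:75978406-75978705, minus strand: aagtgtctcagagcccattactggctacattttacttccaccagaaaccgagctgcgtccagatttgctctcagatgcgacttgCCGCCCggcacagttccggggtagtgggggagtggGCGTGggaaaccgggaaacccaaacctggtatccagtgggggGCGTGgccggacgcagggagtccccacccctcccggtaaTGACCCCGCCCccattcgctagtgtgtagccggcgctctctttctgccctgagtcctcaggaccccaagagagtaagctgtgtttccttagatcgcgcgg
Vegfb, chr19:6987602-6987901, minus strand: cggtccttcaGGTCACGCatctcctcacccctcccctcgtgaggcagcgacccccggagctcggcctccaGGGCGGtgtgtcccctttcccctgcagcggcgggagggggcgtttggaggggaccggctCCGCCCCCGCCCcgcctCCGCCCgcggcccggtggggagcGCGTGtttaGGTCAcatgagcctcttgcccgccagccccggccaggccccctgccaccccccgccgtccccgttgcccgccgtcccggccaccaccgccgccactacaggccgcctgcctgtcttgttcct

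GC boxes were found in all 4 of these windows, 2 each in Vegfa, Vegfc and Kdr and 4 in Vegfb. Among the members not printed, Flt1 held 3, Nrp1 held 1, and Tek and Tie1 held 0. A GC box was present in 35.7% of the 32851 promoter windows of this length. The printed windows were rich in G and C, at 62.0% in Vegfa, 70.3% in Vegfc, 60.7% in Kdr and 75.3% in Vegfb. The median over all windows was 52.7%, so the share of 35.7% is not a matched background for them. The hypoxia core GCGTG occurred at 2 places in Kdr and 2 in Vegfb, and neither core occurred in the printed windows of Vegfa and Vegfc. The window at a second RefSeq start of Vegfa, not printed, held both hypoxia cores, the GC box and the half-site 1 time each. GCGTG was present in 32.4% and ACGTG in 19.6% of all windows. The estrogen response half-site occurred once in Kdr, directly beside a GC box, at 2 places in Vegfb, and not in the printed windows of Vegfa or Vegfc, with 40.5% of all windows holding it. The full estrogen response element (0.07% of windows) and the AP-1 site (7.81%) were in none of the 4. A match describes letters only, and sites outside these windows were not searched.

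Genes around the pathway were counted by the same rules, with 1.7% of all genes called higher and 1.09% lower by the 1.2-fold rule. Among other VEGF ligands, receptors and co-receptors with their semaphorin partners, 10 of 14 listed genes had a probe and 9 passed the background filter. By the 1.2-fold rule 0 were called, and the median log2 ratio was -0.01. Sema3b, a secreted semaphorin gene, had -0.26 ± 0.11, Sema3c had 0.10 ± 0.03, Sema3e had -0.07 ± 0.05 and the placental growth factor gene Pgf had -0.04 ± 0.01. Flt4, which encodes VEGFR-3 and was named after its value was seen, had -0.01 ± 0.01. Of the angiopoietin relatives 6 of 10 had a probe and all 6 passed, 0 were called and the median was -0.01. Angptl1, an angiopoietin-like gene, had 0.40 on array 1 and 0.22 on array 2 (mean 0.31 ± 0.13), Angptl2 had 0.08 ± 0.08 and Angpt4, the mouse gene for a further TIE2 ligand, had -0.03 ± 0.03. Of the genes that carry the signal inside the cell 24 of 33 had a probe and all 24 passed. Of these 0 were called and the median was 0.02. Among those farthest from 0 with 1 sign on both arrays were 0.34 ± 0.40 for Nos3 (endothelial nitric oxide synthase), -0.27 ± 0.26 for Foxo1 and 0.16 ± 0.15 for Gab1.

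Oxygen sensing is the best known control of Vegfa, through hypoxia-inducible factor (HIF). In that list 14 of 19 genes had a probe and 12 passed. By the 1.2-fold rule 1 was called lower and 0 higher, and the median was -0.05. The called gene was Pgk1, a glycolytic enzyme gene and HIF target, at -0.62 on array 1 and -0.76 on array 2 (1.61-fold lower). By median centring alone it lost its call, at a mean of -0.74. Further HIF targets below the rule were Ldha, with -0.38 ± 0.30, and Bnip3, with -0.24 ± 0.22, and Cited2, whose product restrains HIF, had -0.15 ± 0.12. Hif1a itself, named after its value was seen, had -0.17 on array 1 and 0.05 on array 2.

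The change farthest from 0 in the pathway lists was in an antiangiogenic gene. Serpinf1 encodes pigment epithelium-derived factor, a secreted inhibitor of vessel growth. Its normalized log2 intensity was 8.04 in the het and 9.14 in the null pool on array 1, and 7.86 and 8.72 on array 2. Both null readings lay above both het readings, and the ratio was 1.10 and 0.87 (mean 0.98 ± 0.17). This was 1.98-fold higher in the null pool, short of the 2-fold rule and past the 1.2-fold rule. With the scanner software's log ratios the mean was 1.2, and the gene met the 2-fold rule. Col18a1, the collagen gene whose product releases the vessel inhibitor endostatin, was called higher by the 1.2-fold rule, with 0.38 on each array. Of 23 listed antiangiogenic genes 20 had a probe and 17 passed. Serpinf1 and Col18a1 were the 2 called higher, 0 were called lower, and the list median was -0.003. Without loess, by median centring alone, Col18a1 lost its call at a mean of 0.38. Below the rule, Col4a1 had 0.16 ± 0.03 and Pf4 had -0.11 ± 0.14.

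Among other angiogenic ligands and receptors 40 of 42 had a probe and 38 passed. Of these, 2 were called lower and 2 higher, and the median was 0.02. Hey2, a transcription factor gene downstream of Notch, was lower by 1.42-fold (-0.50 ± 0.07), and its relative Hey1, named after its value was seen, was higher at 0.33 ± 0.03. Calcrl, which encodes the receptor subunit for adrenomedullin, was lower by 1.40-fold (-0.48 ± 0.06, and -0.90 in the scanner software's log ratios). Pdgfc, a platelet-derived growth factor gene, was higher at 0.36 ± 0.11, and Pdgfa, not called, had 0.34 ± 0.23. By median centring alone Hey1 (0.36) and Pdgfc (0.40) lost their calls, and Hey2 and Calcrl kept theirs.

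**Figure D3:**
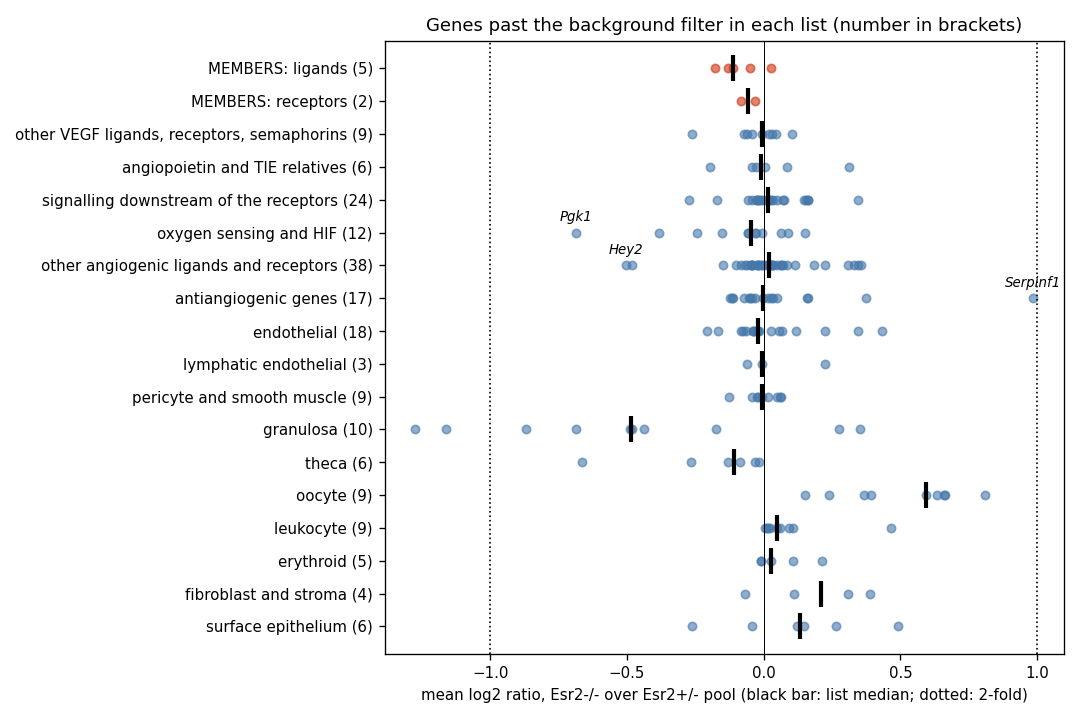
Mean log2 ratio of null over het (horizontal axis) of each gene past the background filter, by list, with list medians as black bars and dotted lines at 2-fold. The ligands lie between -0.18 and 0.03, and Serpinf1 lies at 0.98.

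Markers of the vessel cells that bear these receptors in tissue had medians near that of all genes. Of 22 endothelial markers, 20 had a probe and 18 passed the background filter. By the 1.2-fold rule 1 was called higher and 0 lower, and the median log2 ratio was -0.02. The summed normalized intensity of those 18 was 4191 on array 1 and 4107 on array 2 in the het pool, and 4625 and 4193 in the null pool. Most of the rise on array 1 came from Cd34, at normalized log2 intensities of 9.63 in the het and 10.23 in the null pool. Cd34, a surface marker shared with other cell types, was called higher at 0.43 ± 0.24, but not without background subtraction (0.43) or by median centring alone (0.39). Ramp2 had 0.23 ± 0.05, and Sox18 had -0.21 ± 0.02. Pecam1, a defining endothelial marker named after its value was seen, was not well above background in the het pool on array 1, and had 0.06 ± 0.05. Sox7 and Erg did not pass the filter. Of 11 pericyte and smooth muscle markers 10 had a probe and 9 passed, with 0 called. Their median was -0.005, below 0 in 4 of 9 alternatives. Myh11 had 0.06 ± 0.06, Pdgfrb -0.03 ± 0.02 and Notch3 -0.02 ± 0.02. All 4 lymphatic markers had a probe, 3 passed and 0 were called (median -0.01, with Pdpn at 0.22 ± 0.28). Whether the share of vessel cells played a part in the ratios of the members was not tested.

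Marker RNA of some other cell types differed between the pools beside these values, and that of others hardly did. In the granulosa list 10 of 12 had a probe (Foxl2 and Hsd17b1 did not), and all 10 passed. By the 1.2-fold rule 4 were called lower and 1 higher. Inhba and Cyp19a1 met the 2-fold rule as well, and the list median was -0.48. That median was -0.97 on array 1 and -0.14 on array 2, and on array 2 alone Inhba (-0.81) did not meet the 2-fold rule. The list had a summed intensity of 29724 and 22856 on arrays 1 and 2 in the het pool and 13195 and 16010 in the null pool. Inhba carried much of it, at normalized log2 intensities of 14.16 and 13.68 in the het and 12.65 and 12.87 in the null pool. Because the granulosa list holds Esr2 and genes that gonadotropin drives, it does not measure cell number alone. Of the theca markers 6 of 6 passed, 1 was called lower (Hsd3b1, -0.66 ± 0.11), and the median was -0.11. It was -0.28 in the deposited ratios and -0.18 on array 1 alone. The sums were 18803 and 18704 in the het pool and 11537 and 12773 in the null pool. Most of each sum was Hsd3b1, at normalized log2 intensities of 14.12 and 14.10 in the het and 13.38 and 13.52 in the null pool. The theca sums thus follow Hsd3b1 and do not measure the share of theca cells. Cyp17a1 was far dimmer, at 9.10 and 9.44 in the het and 8.99 and 9.38 in the null pool, with a ratio of -0.09 ± 0.03. Of 13 oocyte markers 10 had a probe, 9 passed and 6 were called higher. Their median was 0.60, with Gdf9 at 0.81 ± 0.30. In the stroma list 4 of 7 had a probe and all 4 passed. Dcn was called higher at 0.39 ± 0.06, and the median was 0.21. In the surface epithelium list 6 of 8 had a probe and all 6 passed. Cdh1 was called higher at 0.49 ± 0.01, and the median was 0.13. Krt19 (0.27 ± 0.11) was higher and Krt8 (-0.26 ± 0.08) lower on both arrays, and neither was called. Of 11 leukocyte markers 10 had a probe and 9 passed. Their median was 0.05, with Lyz2 called higher at 0.46 ± 0.05. Of 10 erythroid markers 5 had a probe, all 5 passed and 0 were called. Their median was 0.03, and all 5 changed sign between the arrays. The summed intensity of the oocyte markers was 9350 and 9648 in the het pool and 16785 and 14094 in the null pool. For the stroma markers it was 1155 and 1060 against 1291 and 1262. By median centring alone 1 of the 6 oocyte calls, Zp1, was kept. The calls that ended had means of about the same size, with 0.75 for Gdf9, 0.61 for Zp2, 0.58 for Zp3, 0.36 for Dcn, -0.73 for Hsd3b1 and 0.29 for Amhr2, the 1 granulosa gene called higher. The part of these marker RNA differences in the Vegfa and Serpinf1 ratios was not tested.

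**Figure D4:**
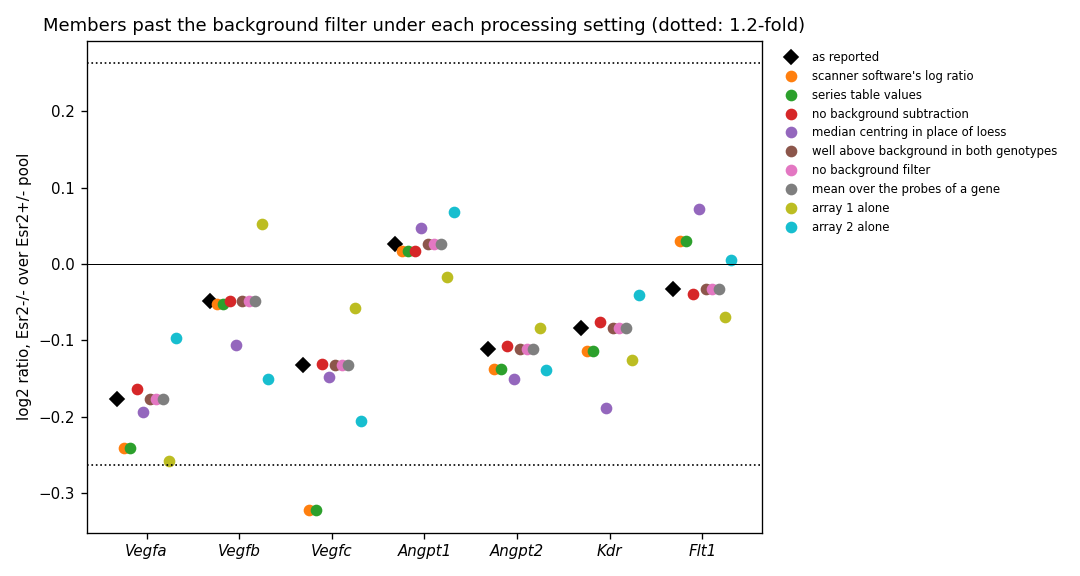
Log2 ratio of null over het (vertical axis) of the 7 members past the background filter under the reported processing (black diamonds) and 9 alternatives (circles), with dotted lines at 1.2-fold. Vegfa, Vegfc, Angpt2 and Kdr stay below 0 in all 9, whereas Vegfb, Angpt1 and Flt1 cross 0 in at least 1. The filters and the averaging of probes cannot change these values, since each gene has 1 probe. The scanner files and the series table hold nearly the same ratios, and the single arrays repeat the ratios of each array given above.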

How the data were processed

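Per the file headers, the deposited spot and background intensity values came from Agilent Feature Extraction A.7.5.1. The deposited LogRatio is log10 of red over green; its deposited error-model p-value was not used. The deposited series table holds log2 red over green ratios, which matched LogRatio within 0.001 for 99.8% of spots on both arrays, with medians of 0 and 0.0022.

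In R 4.3.3 with limma 3.58.1, mean intensities were background-corrected (normexp, offset 50, median local background) and loess-normalized within arrays, control spots at weight 0. Through the offset, dim spots give ratios nearer 0. The sign of array 2 was reversed to give null over het, and the mean of the arrays counted as 1 replicate. Levels were scaled between arrays by Aquantile. The brightest probe stood for a gene with several. Of 20868 probes, 8947 were named by accession and 1147 by the symbol or a synonym in the description, through the RefSeq gene table of GRCm38.p6; a gene without a probe so named was not analysed here. Tables were made in Python 3.11.15. No model was fitted, since there was 1 pool per genotype. The size rules were run on simulated data that held only the spread between technical hybridisations. That run cannot show how often 2 pools of the same genotype would give calls. The number of arrays limits the precision.

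Alternatives were the deposited ratios (scanner files or series table), no background subtraction, median centring, averaging probes of a gene, a stricter or no background filter, and single arrays. The members and lists were chosen with earlier results of these data known. Named genes were every member, and in each list the genes past the 2-fold rule or, where none passed, up to 4 genes farthest from 0 with 1 sign on both arrays; others are marked, and 1 gene is not reported here.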

Additional observations from a re-analysis of the deposited data

How the results depend on the processing

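Under the deposited ratios, whether from the scanner files or the series table, the counts over all genes by the 2-fold rule became 26 higher and 45 lower, from 7 and 17, and by the 1.2-fold rule 657 and 415, from 314 and 201. The cause was not tested. Median centring gave 134 higher by the 1.2-fold rule, and by sign on both arrays 1460 higher and 1478 lower, from 4207 and 4497, with 2 members lower in place of 4. Under it the arrays correlated with r = -0.69 across genes, against 0.32 with loess. Median centring does not remove a dye difference that varies with brightness. Such a difference would take opposite signs on the 2 dye-swapped arrays, and its part was not tested. A call lost under median centring, with a mean of about the same size, therefore does not show that the mean ratio is unstable. With 1 array alone, where a rule is met by that array, counts ranged from 7 to 12 higher and 10 to 40 lower by the 2-fold rule, and from 848 to 969 higher and 440 to 881 lower by the 1.2-fold rule. No member met the 2-fold or the 1.2-fold rule in any of the 9 alternatives. Vegfc came nearest, at -0.2628 on array 1 and -0.3816 on array 2 in the scanner software's ratios. The 1.2-fold cut lies at 0.2630 log2 units, so Vegfc lay almost on it on array 1 and past it on array 2. Its error there was 0.54 and 0.50 log2 units, so the missed call is not a firm negative for this gene. The ligand median ranged from -0.15 to -0.06 and the receptor median from -0.10 to -0.02. Vegfa (-0.26 to -0.10), Vegfc (-0.32 to -0.06), Angpt2 (-0.15 to -0.08) and Kdr (-0.19 to -0.04) kept their sign in all 9 alternatives, Vegfb and Angpt1 in 8 and Flt1 in 5. For a member with 1 probe, the filters and the averaging of probes could not change the ratio. Single arrays could not turn the sign of a member that was lower on both. Serpinf1 met the 2-fold rule with array 1 alone. Signal over background limits Tek, Tie1 and Nrp1 most, and Vegfc, Angpt1, Kdr and Flt1 were dim as well. No paired analysis was possible because no replicate pools could be matched; each ratio compares the pools within an array.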
